A study of Mus musculus with 48 samples.

Results

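Fatty acid uptake and beta oxidation was examined as a module of 34 genes that covers the path of a fatty acid from the capillary to the mitochondrial matrix. The members were listed by function, with earlier results of these data known, and all 34 were found among the 30743 gene rows of the count table. They were measured by RNA sequencing in isolated left ventricular cardiomyocytes of mitochondrial-nuclear exchange (MNX) mice, in which nucleus and mitochondria can come from different inbred strains. These were C3H/HeN (C3H) and C57BL/6J (C57). Genotypes name the nucleus (n) and then the mitochondria (mt): C3Hn:C57mt has a C3H nucleus and C57 mitochondria. The exchanges were C3Hn:C57mt and C57n:C3Hmt, and the wild types were C3Hn:C3Hmt and C57n:C57mt. The age and sex of the mice were not given in the labels used here.

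The 48 libraries formed 2 sets of 24. In set A the titles named the surgery, with 3 ACF and 3 sham libraries for each of 4 title groups, taken on day 3. ACF, commonly short for aortocaval fistula, is a shunt that imposes volume overload on the heart. In set B all 24 libraries were labelled sham on day 3, with 6 for each genotype, and no library had ACF. Depth was 15.89 to 20.77 M (mega) counts in set A and 15.97 to 26.09 M in set B. The share of counts that fell on the members was 0.21% to 2.268% in set A and 1.452% to 2.818% in set B. All 34 passed the filter on low counts in both sets. Levels are in CPM, which sets each library's counts on a common total, scaled within each set, so a level in one set is not set against a level in the other.

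The titles and genotype tags of the exchanged libraries of set A did not go together. A score over 38 strain-marking genes was set to 0 at the C57n:C57mt and 1 at the C3Hn:C3Hmt libraries of set B, which also chose the genes, so those wild types test nothing. Libraries titled C3H_MNX carried the tag C57n:C3Hmt yet scored 0.736 to 0.846 after ACF and 0.816 to 0.829 after sham surgery. Libraries titled C57_MNX carried the tag C3Hn:C57mt and scored -0.115 to -0.0843 after ACF and -0.133 to -0.0272 after sham surgery. The exchanged libraries of set B scored on the side of their tag, 0.992 to 1.03 for C3Hn:C57mt and -0.00629 to 0.0391 for C57n:C3Hmt. Set A groups are therefore called by their titles, and their mitochondrial background was not tested. The wild types of set A scored 0.796 to 0.87 when titled C3H_wt and -0.134 to -0.0221 when titled C57_wt, on the side of their label.

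As background, the heart draws most of its fuel from fatty acids. Lipoprotein lipase releases them from circulating triglyceride, membrane and cytosolic carriers bring them into the cell, and the carnitine shuttle carries their acyl groups across the mitochondrial membranes. In the matrix each round of beta oxidation runs through a dehydrogenation, a hydration, a second dehydrogenation and a thiolytic cleavage. Malonyl-CoA holds the carnitine shuttle back, and fatty acids that are not burned are stored as triglyceride.

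The module includes a gene pair that shares a promoter. Hadha and Hadhb encode the alpha and beta subunits of the mitochondrial trifunctional protein, which carries out the last steps of each round for long chains. They lie head to head on chromosome 5, and the 250 bases before the start of Hadhb share 228 bases with the window of the same length before the start of Hadha. That window (RefSeq, GRCm38.p6, chr5:30155003-30155252, plus strand) is shown because the pair is described together below, with the shared bases in capitals. The windows before Acadl (chr1:66863310-66863559, minus strand) and Hadh (chr3:131272102-131272351, minus strand) are shown because these were the matrix enzymes with the largest differences toward C3H nuclei. The GRCm38 assembly is of C57BL/6J, so the sequences are those of the C57 allele, each written 5′ to 3′ on the strand of its gene.
Hadhb: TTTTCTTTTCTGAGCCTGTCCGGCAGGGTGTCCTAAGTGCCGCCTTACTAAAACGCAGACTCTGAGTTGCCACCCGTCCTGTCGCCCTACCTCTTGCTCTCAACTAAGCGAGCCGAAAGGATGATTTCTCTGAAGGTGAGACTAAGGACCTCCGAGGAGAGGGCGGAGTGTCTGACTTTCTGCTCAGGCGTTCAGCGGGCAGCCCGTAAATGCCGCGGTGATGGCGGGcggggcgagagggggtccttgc
Acadl: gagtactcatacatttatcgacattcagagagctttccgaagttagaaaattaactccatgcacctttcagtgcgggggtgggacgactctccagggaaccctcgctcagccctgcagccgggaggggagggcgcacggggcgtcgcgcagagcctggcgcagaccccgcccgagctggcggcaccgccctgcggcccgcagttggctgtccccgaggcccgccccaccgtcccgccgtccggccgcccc
Hadh: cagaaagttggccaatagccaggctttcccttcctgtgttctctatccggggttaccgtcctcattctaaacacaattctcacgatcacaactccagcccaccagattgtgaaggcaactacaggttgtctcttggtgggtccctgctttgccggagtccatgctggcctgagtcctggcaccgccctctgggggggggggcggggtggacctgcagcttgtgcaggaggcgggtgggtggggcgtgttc

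A window was at hand for 24 of the 34 members. The hexamer AGGTCA, the letters that nuclear receptors of the PPAR and ERR families bind, was searched on both strands. It occurred in 4 of the 24 members with a window (16.7%), namely Acadm, Acadvl, Cd36 and Echs1, and in 15.76% of all 27025 genes with a window. The longer ERR-type letters TCAAGGTCA, which contain the hexamer, occurred in 0 members and 0.42% of all genes. The DR1 repeat, in which the hexamer stands 2 times with 1 base between, occurred in 0 members and 0.04% of all genes.

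The nuclear background in set B gave the largest number of called members. Of the 34 members 16 differed between C3Hn and C57n libraries (12 each), 8 higher and 8 lower in C3Hn, by the quasi-likelihood F test of edgeR, with p-values adjusted over 13395 genes by Benjamini-Hochberg and a threshold of 0.05. The background was 35.7% of all genes called, 18.9% higher and 16.8% lower, against 47.1% of the members. The median log2 fold change was 0.036 over the members and 0.008 over all genes. The called members went both ways in equal number, and no role had all of its members called. The largest differences were lower Dgat2 and Lpl and higher Acadl, Hadh and Dgat1 in C3Hn libraries.

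These calls carry a limit of the design. The titles hold a code of L and a digit, whose meaning the labels do not state, and all 6 C3Hn:C3Hmt libraries had L3 while all 6 C57n:C57mt libraries had L8. With the code as a covariate, edgeR called 5 members, where 10.4% of all genes were called (Lpl, Acacb, Lipe and Dgat2 lower, Dgat1 higher). Within the 8 libraries of code L2, 4 C3Hn:C57mt against 4 C57n:C3Hmt, it called 14 members, 11 of them among the 16, where 30.1% of all genes were called, but there the mitochondria differed as well. The code and the nuclear background cannot be told apart between the wild types. The fit with the covariate therefore takes the effect of the code from the exchanged libraries, which alone mix codes within a genotype. It assumes that this effect is the same in all genotypes.

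**Figure D1:**
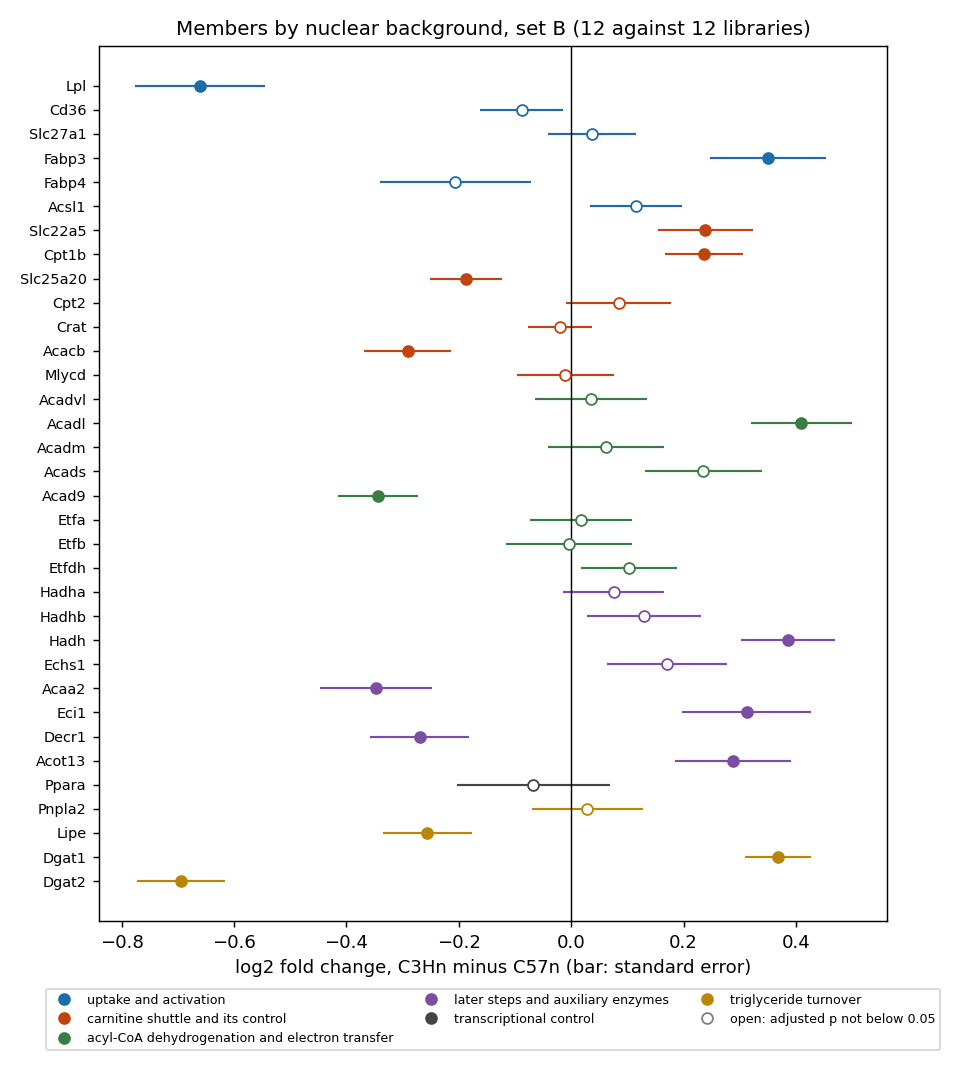
Log2 fold change (x axis) of each of the 34 members (rows) between C3Hn and C57n libraries of set B, 12 against 12, coloured by role, with the standard error as a bar. Filled points have an adjusted p below 0.05, and these 16 lie on both sides of 0, from -0.69 for Dgat2 to 0.41 for Acadl.

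Among the 6 genes of uptake and activation, 1 was higher and 1 was lower in C3Hn libraries. Lpl encodes lipoprotein lipase, the enzyme that frees fatty acids from lipoproteins at the capillary wall. It had 2394 to 4666 CPM with a median of 3259 in C3Hn libraries, against 3867 to 6855 CPM with a median of 5727 in C57n libraries. Most C3Hn libraries lay below most C57n libraries, with some overlap. The log2 fold change was -0.66 (SE 0.115, edgeR adjusted p = 5.11e-05), and it was -1.18 (adjusted p = 0.000951) with the code as a covariate. Fabp3, the heart-type fatty acid binding protein of the cytosol, had 1363 to 2423 CPM with a median of 1918 in C3Hn libraries, against 1078 to 2180 CPM with a median of 1420 in C57n libraries. It was higher by 0.35 (SE 0.103, edgeR adjusted p = 0.00885), with wide overlap of the libraries. Cd36, the fatty acid translocase of the plasma membrane, had medians of 2071 and 2273 CPM in C3Hn and C57n libraries and a log2 fold change of -0.09 (edgeR adjusted p = 0.382). Slc27a1, a fatty acid transport protein, Acsl1, the acyl-CoA synthetase that activates long chains, and Fabp4, a binding protein of adipocytes and endothelium, also did not pass, with log2 fold changes of 0.04, 0.12 and -0.21.

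Of the 7 genes of the carnitine shuttle and its control, 2 were higher and 2 lower in C3Hn libraries. Slc22a5, the plasma membrane carnitine carrier OCTN2, had 30.66 to 42.57 CPM with a median of 37.21 in C3Hn libraries, against 22.96 to 39.08 CPM with a median of 32.10 in C57n libraries. Its log2 fold change was 0.24 (SE 0.0843, edgeR adjusted p = 0.0284), but with the code as a covariate it was -0.018 (adjusted p = 0.967), so its direction in set B turned with that term. Cpt1b, the muscle form of the outer-membrane carnitine palmitoyltransferase and the entry point of the shuttle, had 570.4 to 930.2 CPM with a median of 766.8 in C3Hn libraries, against 537.8 to 733.2 CPM with a median of 650.1 in C57n libraries. It was higher by 0.24 (SE 0.0689, edgeR adjusted p = 0.00845). Slc25a20, the acylcarnitine translocase of the inner membrane, had medians of 158.4 CPM in C3Hn and 171.1 CPM in C57n libraries and was lower (log2 fold change -0.19, edgeR adjusted p = 0.0244). Acacb encodes the acetyl-CoA carboxylase whose malonyl-CoA inhibits the outer-membrane step. It had 237.4 to 396.8 CPM with a median of 322.8 in C3Hn libraries, against 292.2 to 471.2 CPM with a median of 424.7 in C57n libraries. The log2 fold change was -0.29 (SE 0.0774, edgeR adjusted p = 0.00434). Cpt2, the inner-membrane transferase, Crat, carnitine acetyltransferase, and Mlycd, the decarboxylase that removes malonyl-CoA, did not pass, with log2 fold changes of 0.08, -0.02 and -0.01.

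Among the 8 genes of acyl-CoA dehydrogenation and electron transfer, 1 was higher and 1 lower in C3Hn libraries. Acadl, the long-chain acyl-CoA dehydrogenase, had 745.4 to 1313 CPM with a median of 1197 in C3Hn libraries, against 661.8 to 1129 CPM with a median of 827.1 in C57n libraries. It was higher by 0.41 (SE 0.0891, edgeR adjusted p = 0.000653). Acad9, a dehydrogenase relative that also serves the assembly of respiratory complex I, had 25.37 to 41.16 CPM with a median of 36.22 in C3Hn libraries, against 35.39 to 51.46 CPM with a median of 45.08 in C57n libraries. Its log2 fold change was -0.34 (SE 0.071, edgeR adjusted p = 0.000383). The other chain-length dehydrogenases did not pass. The medium-chain enzyme gene Acadm had medians of 1182 and 1034 CPM in C3Hn and C57n libraries (log2 fold change 0.06), and the very-long-chain gene Acadvl had 1073 and 941.3 CPM (0.04). The short-chain gene Acads had medians of 233.1 CPM in C3Hn and 190.7 CPM in C57n libraries (0.23, edgeR adjusted p = 0.0825). Etfa, Etfb and Etfdh, which pass the electrons on to the respiratory chain, had log2 fold changes of 0.02, -0.0034 and 0.10.

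The 8 genes of the later steps and auxiliary enzymes had 3 higher and 2 lower members in C3Hn libraries. Hadh, the hydroxyacyl-CoA dehydrogenase of short and medium chains, had 444.4 to 788.5 CPM with a median of 690.5 in C3Hn libraries, against 385.4 to 646.6 CPM with a median of 507.1 in C57n libraries. It was higher by 0.39 (SE 0.0832, edgeR adjusted p = 0.000592). Acaa2, the thiolase that cuts off the acetyl group in the matrix, had 388.1 to 756.5 CPM with a median of 648.2 in C3Hn libraries, against 599.8 to 1110 CPM with a median of 719.4 in C57n libraries, and was lower (log2 fold change -0.35, SE 0.0999, edgeR adjusted p = 0.00769). Decr1, the reductase that handles polyunsaturated chains, had medians of 337.1 CPM in C3Hn and 367.7 CPM in C57n libraries and a log2 fold change of -0.27 (edgeR adjusted p = 0.0177). Eci1, the isomerase of unsaturated chains, had medians of 177.5 and 126.9 CPM in C3Hn and C57n libraries, with a log2 fold change of 0.31 (edgeR adjusted p = 0.0365). Acot13, a thioesterase, had medians of 133.2 and 107.3 CPM in C3Hn and C57n libraries, with a log2 fold change of 0.29 (edgeR adjusted p = 0.0317). Eci1 passed in 13 and Acot13 in 17 of the 24 fits that left out 1 library each. Echs1, the enoyl-CoA hydratase, Hadha and Hadhb did not pass, with log2 fold changes of 0.17, 0.08 and 0.13.

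Of the 34 members 2 had C3Hn and C57n libraries that did not overlap, against 6.1% of all genes. Such separation was therefore no more frequent among the members than among all genes. Both members, Dgat2 and Dgat1, belong to triglyceride turnover. Dgat2, an acyltransferase of the last step of triglyceride synthesis, had 194.8 to 321.3 CPM with a median of 245.9 in C3Hn libraries, against 333.7 to 529.6 CPM with a median of 390.8 in C57n libraries. The log2 fold change was -0.69 (SE 0.0775, edgeR adjusted p = 5.52e-08). Dgat1, the other acyltransferase of that step, went the opposite way, with 20.39 to 29.83 CPM and a median of 22.0 in C3Hn libraries, against 16.60 to 19.16 CPM and a median of 17.82 in C57n libraries. It was higher by 0.37 (SE 0.0583, edgeR adjusted p = 1.37e-05). Both stayed called with the code as a covariate, Dgat2 at -0.89 and Dgat1 at 0.60. Lipe, hormone-sensitive lipase, had medians of 23.89 CPM in C3Hn and 28.18 CPM in C57n libraries and a log2 fold change of -0.26 (edgeR adjusted p = 0.0138). Pnpla2, the adipose triglyceride lipase that starts the breakdown, did not pass, with medians of 250.8 and 245.3 CPM in C3Hn and C57n libraries. Ppara, the fatty acid-sensing transcription factor that drives many genes of the pathway, had medians of 70.15 CPM in C3Hn and 80.63 CPM in C57n libraries and a log2 fold change of -0.07 (edgeR adjusted p = 0.744).

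**Figure D2:**
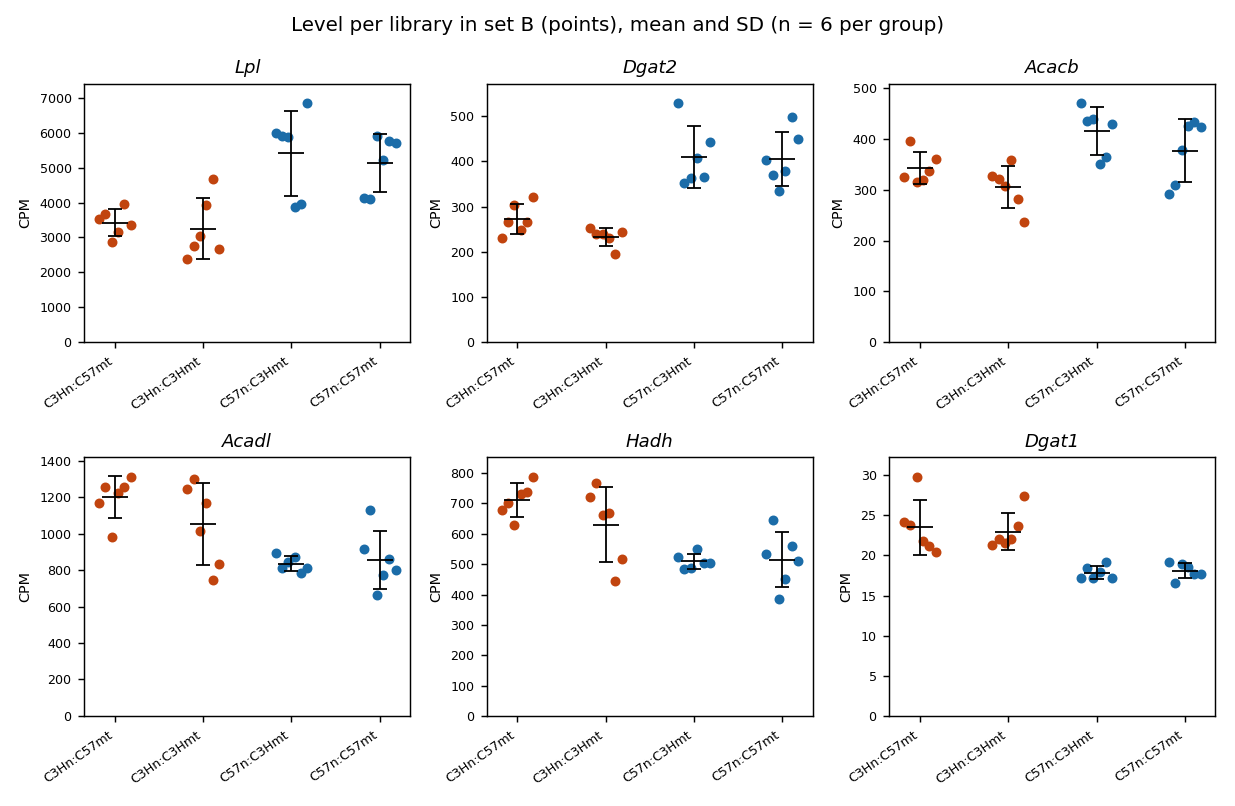
Level in CPM (y axes, from 0) of 6 members in every library of set B, by genotype (x axes), with C3H nuclei in orange and C57 nuclei in blue and the mean and SD as black bars (n = 6 per group). Over the 12 libraries of each nucleus, Lpl, Dgat2 and Acacb were lower with C3H nuclei and Acadl, Hadh and Dgat1 higher, and Acadl and Hadh did not pass between the wild types alone.

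The wild types were also compared alone, which reuses 12 of those libraries. In set B, C3Hn:C3Hmt against C57n:C57mt (6 each), gave 9 called members, Dgat1 higher and Lpl, Slc25a20, Acacb, Acad9, Acaa2, Decr1, Lipe and Dgat2 lower, where 22.6% of all genes were called (12% higher and 10.7% lower). Of these, Acacb (edgeR adjusted p = 0.0476) passed in 7 and Decr1 (edgeR adjusted p = 0.0289) in 19 of the 24 fits that left out 1 library each, and the other 7 passed in every one. Acadl at 0.30 (edgeR adjusted p = 0.0947) and Hadh at 0.29 (edgeR adjusted p = 0.0769) did not pass. Dgat2 had 194.8 to 252.3 CPM with a median of 239.2 in C3Hn:C3Hmt libraries, against 333.7 to 499.0 CPM with a median of 390.8 in C57n:C57mt libraries. Acaa2 had medians of 570.8 CPM in C3Hn:C3Hmt and 796.5 CPM in C57n:C57mt libraries and a log2 difference of -0.55 (SE 0.142, edgeR adjusted p = 0.00529). With the code as a covariate 4 members were called, where 4.32% of all genes were. This rests on a code effect taken from the exchanged libraries, since the code and the wild types here coincide.

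Some members are also made by cells other than cardiomyocytes, so marker genes were read in the same libraries. The 12 cardiomyocyte markers summed to a median of 90900 CPM in C3Hn and 90700 CPM in C57n libraries, with 3 of 12 higher and 1 lower by the same test, which called 35.7% of all genes. The 10 adipocyte markers summed to 12.1 to 22.8 CPM in C3Hn libraries, against 7.38 to 35.7 CPM in C57n libraries. The 12 endothelial markers summed to 369 to 758 CPM in C3Hn libraries, against 348 to 1010 CPM in C57n libraries, with 2 of 12 lower and 0 higher. The 11 macrophage markers summed to 45.2 to 220 CPM in C3Hn libraries, against 61.6 to 232 CPM in C57n libraries, with 5 of 11 lower and 1 higher. The 10 smooth muscle and pericyte markers summed to 438 to 862 CPM in C3Hn libraries, against 277 to 740 CPM in C57n libraries, with 2 higher and 2 lower. The 10 fibroblast markers had 1 higher and 0 lower. No marker of these 6 lists was at 0 in every library of a nuclear background. The part of the macrophage and endothelial transcripts in the lower Lpl and Lipe of C3Hn libraries was not tested.

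Set A gave the strain difference in other libraries. Its wild types, C3H_wt_sham against C57_wt_sham with 3 each, gave 0 called members by edgeR (2 at an unadjusted p under 0.05, 1 called by DESeq2), where 3.76% of all genes were called by edgeR and 3.96% by DESeq2. Without library 489 of C57_wt_ACF, described below, which enters this comparison through the filter, the scaling and the shared spread, 3 members were called (Slc22a5, Acad9 and Dgat2), where 6.49% of all genes were. A wider comparison, added after the data were seen, set the 6 sham libraries titled C3H (C3H_wt and C3H_MNX) against the 6 titled C57. It gave 1 called member, Slc22a5, where 8.39% of all genes were called, and 5 called members without library 489, where 15.4% were. For 5 members the 2 sides did not overlap, as for 9.06% of all genes.

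The 5 members called without library 489 were Slc22a5, Lpl, Acacb, Acad9 and Dgat2. Each had the sign it had by nuclear background in set B, though that of Slc22a5 in set B turned with the L code as a covariate. How many of all genes called in both sets kept their sign was not counted. Slc22a5 had 26.57, 26.89 and 24.47 CPM in C3H_wt_sham and 22.45, 26.95 and 23.83 CPM in C3H_MNX_sham, against 19.70, 17.67 and 19.15 CPM in C57_wt_sham and 17.91, 19.65 and 18.40 CPM in C57_MNX_sham. Every C3H-titled library lay above every C57-titled one, with a log2 difference of 0.43 (SE 0.102, edgeR adjusted p = 0.0097). Without library 489 it was 0.46 (edgeR adjusted p = 0.000834). Acad9 had 20.64, 20.56 and 21.01 CPM in C3H_wt_sham and 20.96, 20.66 and 20.66 CPM in C3H_MNX_sham, against 34.21, 31.19 and 27.54 CPM in C57_wt_sham and 25.39, 27.28 and 23.21 CPM in C57_MNX_sham. The C3H-titled libraries were nearly level and all lay below the C57-titled ones, with a log2 difference of -0.40 (SE 0.0849, edgeR adjusted p = 0.00199) without library 489.

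Dgat2 had 121.6, 131.2 and 148.7 CPM in C3H_wt_sham and 133.3, 127.2 and 126.0 CPM in C3H_MNX_sham, against 224.2, 212.6 and 183.6 CPM in C57_wt_sham and 166.9, 203.6 and 177.3 CPM in C57_MNX_sham. The sides did not overlap, and the log2 fold change without library 489 was -0.54 (SE 0.118, edgeR adjusted p = 0.00303). With all libraries neither Lpl (edgeR adjusted p = 0.564) nor Acacb (edgeR adjusted p = 0.313) passed. Lpl had 3917 to 5515 CPM with a median of 4561 in the 6 C3H-titled libraries, against 5691 to 7404 CPM with a median of 6231 in the 6 C57-titled ones, with a log2 difference of -0.41 (SE 0.12, edgeR adjusted p = 0.022) without library 489. Acacb had 183.4 to 239.0 CPM with a median of 207.5 in C3H-titled libraries, against 256.1 to 341.5 CPM with a median of 270.3 in C57-titled ones, with a log2 difference of -0.41 (SE 0.0923, edgeR adjusted p = 0.00372) without library 489. Dgat1 did not pass here, with 10.55, 12.56 and 10.96 CPM in C3H_wt_sham and 12.0, 10.23 and 10.91 CPM in C3H_MNX_sham, against 9.585, 11.18 and 8.001 CPM in C57_wt_sham and 9.539, 9.188 and 10.88 CPM in C57_MNX_sham.

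**Figure D3:**
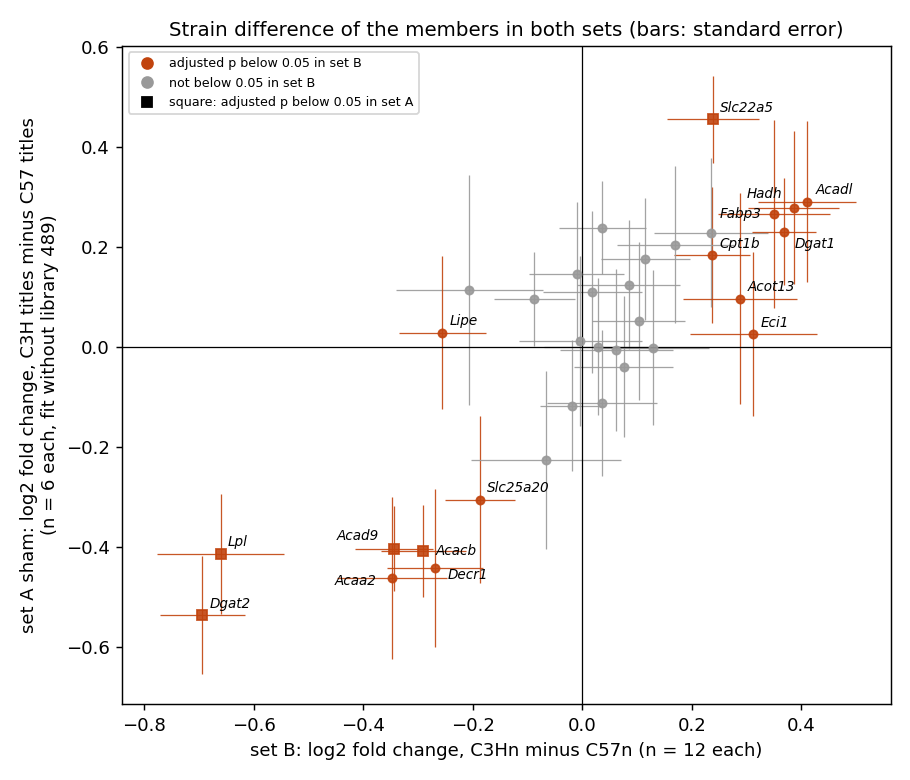
Log2 fold change of each of the 34 members by nuclear background in set B (x axis, 12 against 12 libraries) and between C3H-titled and C57-titled sham libraries of set A (y axis, 6 against 6, fitted without library 489), with standard errors as bars. Orange members were called in set B and squares in set A, and all 5 squares lie in a quadrant where both sets had the same sign, while Lipe lies at -0.26 and 0.03.

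The mitochondrial background was not followed by a called member in set B. The L code was not spread evenly over this comparison, as its counts in the exchanges below show. Between C3Hmt and C57mt libraries (12 each) edgeR called 0 of 34 members and 0 of 13395 genes, with 2 members and 549 genes at an unadjusted p under 0.05 (DESeq2 called 0 members and 1 gene). The members' log2 fold changes ran from -0.20 to 0.32 with a median of -0.11, against 0.002 over all genes, and their median standard error was 0.0897. The members at an unadjusted p under 0.05 were Ppara, at 0.32 (SE 0.137, edgeR adjusted p = 0.914), and Lipe, at -0.19 (SE 0.08, edgeR adjusted p = 0.914).

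Each exchange was also read against its own nuclear wild type. The L code split these comparisons too. With a C3H nucleus, 4 C3Hn:C57mt libraries had L2 and 2 had L3, against L3 in all 6 wild types. With a C57 nucleus, 4 C57n:C3Hmt libraries had L2 and 2 had L8, against L8 in all 6 wild types. In the 2 C57n:C3Hmt libraries with L8, 1.45% and 1.54% of counts fell on the members, against 2.20% to 2.33% in the 4 with L2. In the 6 C57n:C57mt libraries, all with L8, the share was 2.251% to 2.818%. These shares are of counts before scaling. On the scaled log2 CPM, the members' median deviation from the set B mean was 0.047 and -0.078 in the 2 with L8. It was -0.072 to 0.068 in the 4 with L2. The code and the mitochondria cannot be fully told apart here. With a C57 nucleus, Ppara had 78.42 to 125.6 CPM with a median of 91.62 in C57n:C3Hmt libraries, against 31.99 to 98.14 CPM with a median of 74.27 in C57n:C57mt libraries. The log2 fold change was 0.51 (SE 0.194, edgeR adjusted p = 0.337), with overlap of the libraries. Fabp4 had 121.6 to 273.6 CPM with a median of 160.3 in C57n:C3Hmt libraries, against 153.3 to 335.8 CPM with a median of 249.3 in C57n:C57mt libraries, at -0.50 (SE 0.19, edgeR adjusted p = 0.336). With a C3H nucleus, Fabp4 had 129.2 to 198.3 CPM with a median of 173.8 in C3Hn:C57mt libraries, against 152.4 to 299.2 CPM with a median of 184.8 in C3Hn:C3Hmt libraries, at -0.20 (SE 0.19, edgeR adjusted p = 0.738). Over all members, 30 of 34 were above 0 in C3Hn:C57mt with a median of 0.16, against -0.004 over all genes. In C57n:C3Hmt 23 of 34 were below 0, with a median of -0.04, against -0.007 over all genes. Of the 34 members 0 were called in either exchange, where edgeR called 0 genes with a C57 nucleus and 1 gene (0.00747%) with a C3H nucleus. The interaction of nucleus and mitochondria also had 0 called members and 0 called genes, 1 member and 2188 genes being at an unadjusted p under 0.05. Taken as the C3Hmt minus C57mt difference with a C3H nucleus minus that with a C57 nucleus, its smallest adjusted p among the members was that of Fabp4, at 0.70 (SE 0.269, edgeR adjusted p = 0.194). The medians of 12 endothelial, 11 macrophage and 10 fibroblast markers in the interaction were 0.69, 1.33 and 1.10, against -0.14 for 12 cardiomyocyte markers. The endothelial median was -0.38 in C57n:C3Hmt and -0.33 in C3Hn:C57mt, each against its own wild type, and the cardiomyocyte medians were 0.04 and 0.14. None of these markers was called, and their part in the Fabp4 values was not tested. In the sham libraries of set A, C3H_MNX against C3H_wt and C57_MNX against C57_wt had 0 called members each, with 2 genes (0.0149%) and 0 genes called.

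The surgery was examined in set A, where library 489 of C57_wt_ACF stood apart. Its 34 members had a median deviation of -2.89 on the log2 scale from the sham libraries, and 30 of them were below every other library of set A. Slc27a1, Fabp4, Lipe and Dgat1 were the 4 that were not. Its cardiomyocyte markers summed to 10560 CPM, against 48150 to 84230 CPM in the other 23 libraries, and its erythrocyte markers to 69570 CPM, against 4.26 to 295.7 CPM. Its fibroblast markers summed to 2126 CPM, against 199 to 1077 CPM, and its macrophage markers to 386.9 CPM, against 47.0 to 204.8 CPM. Its lymphocyte sum, 13.19 CPM, was also the highest of set A. Its smooth muscle and pericyte markers were the lowest, at 241.2 CPM against 556.1 to 999.6 CPM. Its endothelial (1567 CPM), neutrophil (102.1 CPM) and adipocyte (5.092 CPM) sums lay within the range of the others. In RNA from many cells, fewer cells of a type and less RNA per cell cannot be told apart. Library 6756 of C3H_MNX_ACF was also low, at -0.66, with the second lowest sum of cardiomyocyte markers (48150 CPM). Library 6763 of C57_MNX_sham was at -0.47 with 50780 CPM, and its adipocyte (20.38 CPM) and endothelial (1585 CPM) sums were the highest of set A. Results on the surgery are given with and without library 489, and for the MNX titles also without these.

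**Figure D4:**
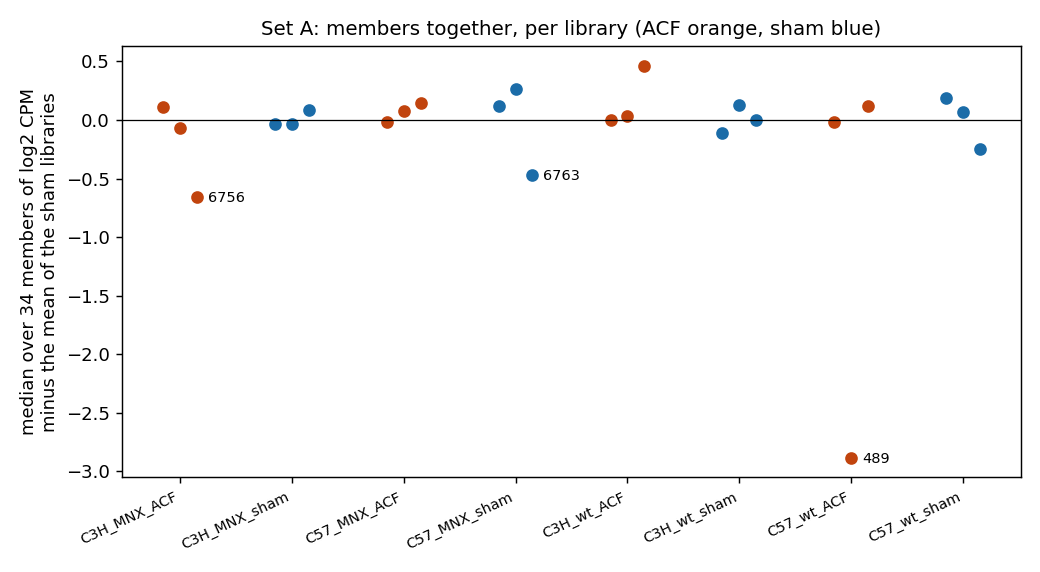
Median over the 34 members of the log2 CPM minus the mean of the sham libraries (y axis) for each library of set A, by title group (x axis), with ACF in orange and sham in blue. Library 489 lies at -2.89, libraries 6756 and 6763 at -0.66 and -0.47, and the others at -0.251 or above.

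Averaged over the 4 title genotypes, ACF against sham gave 0 called members by edgeR, where 0.275% of all genes were called. At an unadjusted p under 0.05 there were 2 members and 1524 genes, and DESeq2 called 0 members and 236 genes. The members' median log2 fold change was -0.09 with 29 of 34 below 0, against 0.001 over all genes. Without library 489 the median was 0.02 with 13 of 34 below 0, and 0 members and 125 genes were called. It was -0.18 without library 490 of C57_wt_ACF, -0.05 without library 6756 and -0.15 without library 6763. The standard error of a member had a median of 0.221 with all libraries. A call takes a difference of several standard errors, so log2 differences of several times 0.221 could also go uncalled here. With the L code as a covariate, in a fit that kept library 489, the median was -0.23 and 0 members were called.

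The members at an unadjusted p under 0.05 with all libraries were Slc22a5, at -0.21 (SE 0.0724, edgeR adjusted p = 0.259), and Dgat1, at 0.17 (SE 0.0772, edgeR adjusted p = 0.403). Dgat1 had 14.18, 10.92 and 15.48 CPM in C3H_wt_ACF against 10.55, 12.56 and 10.96 CPM in C3H_wt_sham, and 15.14, 13.19 and 12.14 CPM in C3H_MNX_ACF against 12.0, 10.23 and 10.91 CPM in C3H_MNX_sham. In C57_MNX it had 10.79, 12.08 and 11.46 CPM after ACF against 9.539, 9.188 and 10.88 CPM after sham surgery, and in C57_wt 8.153, 8.65 and 10.63 CPM after ACF against 9.585, 11.18 and 8.001 CPM. The ACF values overlapped the sham values in C3H_wt, C57_MNX and C57_wt. Without library 489, Cpt1b at 0.22 and Cpt2 at -0.21 joined them at an unadjusted p under 0.05 (edgeR adjusted p = 0.356 and 0.361).

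Slc22a5 in C3H_wt came closest to a call for a single genotype. It had 18.16, 19.39 and 14.58 CPM in C3H_wt_ACF, against 26.57, 26.89 and 24.47 CPM in C3H_wt_sham. The log2 fold change was -0.58 (SE 0.145, edgeR adjusted p = 0.193). It was -0.59 (SE 0.123, edgeR adjusted p = 0.0404) without library 489, when 0.509% of all genes were called, and DESeq2 called it with all libraries, when it called 0.504% of all genes. In the other genotypes the ACF and sham values overlapped. C3H_MNX_ACF had 19.36, 20.92 and 25.96 CPM, against 22.45, 26.95 and 23.83 CPM in C3H_MNX_sham. C57_MNX_ACF had 16.92, 20.63 and 20.04 CPM, against 17.91, 19.65 and 18.40 CPM in C57_MNX_sham. C57_wt_ACF had 18.33, 13.62 (library 489) and 18.95 CPM, against 19.70, 17.67 and 19.15 CPM in C57_wt_sham. The difference in response between C3H_wt and C57_wt did not pass for Slc22a5, which had the smallest adjusted p of the members (0.475).

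In C57_wt the members' values turned with library 489. Acadm had 604.7, 70.73 and 718.1 CPM in C57_wt_ACF, against 751.5, 636.1 and 468.0 CPM in C57_wt_sham. Cd36 had 1221, 357.7 and 1278 CPM in C57_wt_ACF, against 1395, 1399 and 1156 CPM in C57_wt_sham. In both genes the middle value is library 489, and the other 2 ACF libraries lay within the sham range. The members' median was -0.43 with 33 of 34 below 0 with all libraries, and 0.03 with 12 of 34 below 0 without library 489, when 2 ACF libraries were left. In both fits 0 members were called by edgeR, with 0 members and 2030 genes at an unadjusted p under 0.05 with all libraries and 142 genes called by DESeq2.

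The members' medians in the other genotypes were 0.17 in C3H_wt, 0.04 in C57_MNX and -0.17 in C3H_MNX, with a median standard error of 0.441 in each. Of the members 0 were called in each, with 0 genes called in C3H_wt and C57_MNX and 1 gene (0.00744%) in C3H_MNX. Single libraries moved these medians. C3H_MNX was at 0.01 without library 6756, C57_MNX at -0.14 without library 6763, and C3H_wt at 0.001 without library 486 of C3H_wt_ACF. The medians of the 12 cardiomyocyte markers were 0.24 in C3H_wt, 0.09 in C57_MNX and -0.11 in C3H_MNX, and those of the 12 endothelial markers were -0.27, -0.38 and 0.69 in the same order. Without library 6756 the cardiomyocyte and endothelial medians in C3H_MNX were 0.07 and 0.14, and without library 6763 those in C57_MNX were -0.06 and 0.03. The part of cell content in the members' medians was not tested. The L code, of which the 3 C3H_MNX_ACF libraries shared L8, turned 2 of these medians when it entered as a covariate. They went to -0.56 in C3H_wt and 0.04 in C3H_MNX, again with 0 members called. In set A only library 489 and library 482 of C3H_wt_sham had L7, so library 489 enters the C3H_wt value through that code. No fit with the code left library 489 out, and its part in the -0.56 was not tested. In C57_MNX, Lipe had 14.80, 14.45 and 15.53 CPM after ACF against 18.80, 18.94 and 26.84 CPM after sham surgery. It was at -0.53 (SE 0.231, edgeR adjusted p = 1). The 26.84 CPM is library 6763, without which Lipe was at -0.34 (SE 0.246, edgeR adjusted p = 1). The difference in response between C3H_wt and C57_wt had a median of 0.59 over the members with all libraries and 0.14 without library 489, and 0 members were called. In the same comparison the cardiomyocyte markers had a median of 0.54, the endothelial markers of -0.93 and the fibroblast markers of -1.62 with all libraries, and of 0.04, 0.01 and 0.01 without library 489. The difference between the MNX titles and the wild types had a median of 0.04 with all libraries and -0.16 without library 489 (0.13 without library 6756 and -0.03 without library 6763), again with 0 members called. Both fits shared their sham and ACF libraries with the comparisons above.

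**Figure D5:**
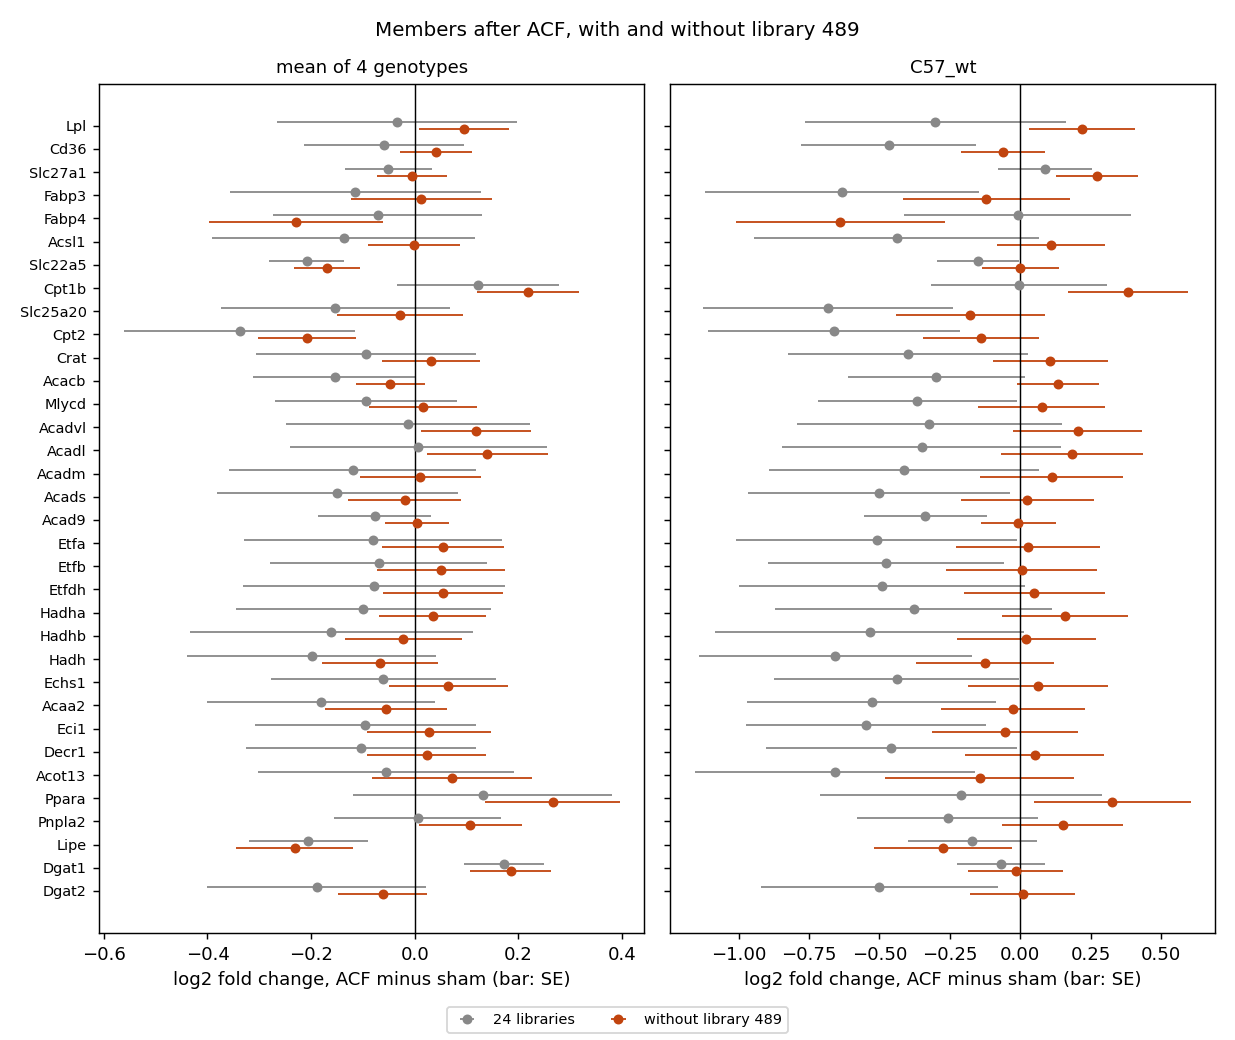
Log2 fold change of ACF over sham (x axes) of the 34 members (rows), for the mean of 4 genotypes on the left and for C57_wt on the right, with all 24 libraries of set A in grey and without library 489 in orange, and standard errors as bars. In C57_wt the grey points have a median of -0.43 and the orange points of 0.03.

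Ratios between subunits of the same enzyme were also read. The log2 ratio of Hadha to Hadhb, whose shared promoter is shown above, had an SD of 0.095 over the 24 libraries of set B, against SDs of 0.236 and 0.27 for Hadha and Hadhb alone. Without library 489 it ran from -0.744 to -0.369 in set A (SD 0.091), and in library 489 it was 0.101. Etfa and Etfb, the subunits of the electron transfer flavoprotein, are not neighbours. Their log2 ratio had an SD of 0.11 in set B and of 0.102 in set A without library 489. It ran from 0.692 to 1.07 in those 23 libraries and was -0.092 in library 489. Over all 561 pairs of members in set B the SD of the log2 ratio had a median of 0.308, and 11 pairs had a smaller SD than Hadha and Hadhb and 18 a smaller one than Etfa and Etfb. The smallest, 0.0645, was that of Acadl and Hadh, which are not subunits of one enzyme, so a small SD was not particular to subunits. These ratios are of CPM and carry the lengths of the transcripts, so their size is not a ratio of molecules, and the genes share the depth and scaling of each library.

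Spread among libraries of a group differed between members. In set B the SD of log2 CPM within groups was 0.124 for Crat and 0.13 for Dgat1, and 0.378 for Ppara and 0.355 for Fabp4. In set A without library 489 it was 0.134 for Cd36 and 0.135 for Acad9, and 0.446 for Fabp4 and 0.418 for Acot13.

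Of 143 other genes of the pathway, in 8 lists, 132 were tested. By nuclear background in set B 31 were higher and 14 lower in C3Hn libraries (34.1%, against 35.7% of all genes). Peroxisomal fatty acid oxidation had 7 of 16 higher and 1 lower, lipid droplet and triglyceride turnover 5 of 24 higher and 0 lower, and acyl-CoA thioesterases 1 of 10 higher and 3 lower. Malonyl-CoA control and lipogenesis had 3 of 16 higher and 5 lower, and the PPAR and ERR regulators 4 of 21 higher and 1 lower. The auxiliary genes of mitochondrial beta oxidation had 5 of 24 higher and 2 lower, the other genes of entry and activation 4 of 14 higher and 2 lower, and PPAR target genes outside the members 2 of 14 in each direction. Some genes stand in more than 1 list.

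The 6 with the smallest adjusted p in set B were Slc25a29, Acaa1b, Thrsp, Prkag2, Acot1 and Med1. Slc25a29, a mitochondrial carrier of basic amino acids first described as an acylcarnitine carrier, was at 1.19 (SE 0.0889). Acaa1b, a peroxisomal thiolase, was at 4.47 (SE 0.334), and Thrsp, a lipogenic protein, at -1.74 (SE 0.149). Prkag2, a regulatory subunit of AMP-activated kinase, was at -0.67 (SE 0.0591), Acot1, a cytosolic thioesterase, at -1.29 (SE 0.119), and Med1, a Mediator subunit that binds PPARs, at 0.59 (SE 0.0631). Their edgeR adjusted p ran from 2.76e-11 to 2.82e-08. Acaa1b and Acot1 have near-identical paralogs, Acaa1a and Acot2, between which reads may be divided, so their values are uncertain. Acaa1b, Thrsp and Prkag2 were also among the genes called between C3H-titled and C57-titled sham libraries of set A, at 6.16, -1.02 and -0.70. The other 3 of the 6 with the smallest adjusted p there were Acsl3, an acyl-CoA synthetase, at 0.92, Srebf1, a regulator of lipogenesis, at 0.70, and Acaa1a, at -0.75. Acaa1a went the opposite way to Acaa1b in both sets, at -0.51 (SE 0.0986, edgeR adjusted p = 0.000191) in set B, and how far reads are divided between them was not tested. Acot2 was at -0.12 (edgeR adjusted p = 0.401) in set B, beside Acot1. For ACF averaged over genotypes and for the mitochondrial background 0 of the 132 were called, with 13 and 10 at an unadjusted p under 0.05.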

How the data were processed

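RNA of isolated mouse cardiomyocytes was sequenced after a stranded mRNA kit, per the labels' protocols. The deposited table holds expected counts per gene symbol (13.9% of values not whole), not normalized by the authors. Named in the submitters' processing notes are RSEM 1.2.0, Bowtie, CASAVA 1.8.2 and build mm9, while the extract protocol describes a provider's own mapping, so which made the table is not settled. RSEM divides reads among near-identical genes.

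Expected counts were rounded and analysed in R 4.3.3 with edgeR 4.0.16 (quasi-likelihood F test on TMM-scaled counts, filterByExpr, Benjamini-Hochberg adjusted p under 0.05). Set A (13440 genes) and set B (13395 genes) were fitted apart, because the tags of the exchanged set A libraries ran against their nuclear profile, and because levels differ between the sets. A standard error is the log2 fold change divided by the square root of F. Levels are CPM on TMM library sizes, and log2 CPM has a prior count of 2. The fits were tested on simulated data with a single fixed spread for all genes, not that of the data. Of simulated 1.5-fold and 2-fold changes, 4% and 26% were recovered for ACF in C57_wt, and 71% and 98% for ACF averaged over genotypes. Recovery was 59% and 95% for nuclear background and 72% and 100% for mitochondrial background in set B. With all libraries, a member's median standard error was 0.221 for ACF averaged over genotypes and 0.443 for ACF in C57_wt. It was 0.0897 for nuclear and for mitochondrial background in set B. The recovery figures for ACF therefore cannot be taken to hold for the members. Recovery at the members' own spread was not tested. Chi-square per degree of freedom between libraries of a group was at least 4.04, so no library appeared to be repeated within its group. Libraries of different groups were not compared in this way. Groups came from titles and labels. Only the numbers in the titles speak for separate animals, so p-values reflect the spread among the sequenced libraries, which may be technical.

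All members are named. Of the other pathway genes, up to 6 with the smallest adjusted p per comparison are named. Members and lists were chosen with earlier results of these data known. Other settings tried were no filter, DESeq2 1.42.0, edgeR with the size factors of DESeq2, library sizes without mitochondrial transcripts and Rn45s, each library left out, all 48 libraries in 1 fit, and the L code as a covariate in set B. Chosen after the data were seen were the comparison of C3H-titled with C57-titled sham libraries, the fit within L2, the L code in set A, the naming of members without library 489, the CPM sums of markers in it, the marker medians without libraries 489, 6756 and 6763, and the ratios over all pairs of members. Acot2, Acaa1a in set B and the members' medians without single libraries were also picked then. Promoter windows (GRCm38.p6, RefSeq) hold the 250 bases before a transcript start. The files' own build, mm9, has no coordinates here.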

Additional observations from a re-analysis of the deposited data

Results flagged for a closer look

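A single library lay far from the other 5 of its genotype in 7 of 136 groups of 6 in set B, by the gap to its nearest neighbour relative to the range. Chance flags about 1 group in 20. Values are log2 CPM. Fabp3 was at 10.75 in library 7 of C57n:C3Hmt, the others being at 10.36 to 10.5. Etfb was at 8.8 in the same library, the others being at 8.31 to 8.49. Etfb was at 8.92 in library 18 of C3Hn:C57mt, the others being at 8.48 to 8.63. Etfdh was at 9.06 in library 15 of C3Hn:C57mt, the others being at 9.36 to 9.45. Acot13 was at 6.49 in library 23 of C3Hn:C3Hmt, the others being at 7.03 to 7.22. Dgat2 was at 7.61 in that library, the others being at 7.84 to 7.98, and its direction by nuclear background was toward that low value. Lipe was at 4.45 in library 10 of C57n:C3Hmt, the others being at 4.78 to 4.97.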

How the results depend on the processing

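No paired analysis was possible because no library number was shared between groups. DESeq2 called 1 member for ACF in C3H_wt and 1 for wild-type C3H against C57 in set A, against 0 each by edgeR. With the L code as a covariate, 5 members were called by nuclear background in set B (16 without it), Slc22a5 turned to -0.018, and 4 were called between the wild types (9 without it). In 1 fit of all 48 libraries, 2 members were called between C3H-titled and C57-titled sham libraries (1 in set A alone). The causes of these changes were not tested. Leaving out each library in turn gave 14 to 17 members by nuclear background, 7 to 10 between the wild types of set B, 0 to 3 between those of set A, 1 to 5 between title strains and 0 to 1 for ACF in C3H_wt, the highest in the last 3 being without library 489. The other comparisons kept 0 called members in every such fit. Counts over all genes moved more. For ACF averaged over genotypes, edgeR called 37, the 48-library fit 401, DESeq2 236, and fits without 1 library 12 to 174. For ACF in C57_wt edgeR called 0, DESeq2 142, the 48-library fit 1018, and fits without 1 library 0 to 874 (874 without library 465 and 688 without library 490). For ACF in C3H_wt edgeR called 0, DESeq2 74, the 48-library fit 112, and fits without 1 library 0 to 69. For nucleus by mitochondria edgeR called 0, DESeq2 294, and fits without 1 library 0 to 422 (422 without library 5). By nuclear background 1399 genes were called with the L code, against 4776, and 578 between the wild types, against 3033.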
